A study of Sus scrofa with 15 samples.

Results

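The 10 genes MAPK7, HK2, FSCN1, ELK1, DNMT3A, BCL2, MAP3K7, FNDC3B, ABL2 and LIMK1 are described in the literature as targets of the microRNA miR-143. They were chosen by symbol from published descriptions and matched through their NCBI Gene numbers. All 10 were found among the 16804 genes that are in both deposited tables, and all 10 passed the filter on low values (1 FPKM or more in 3 or more libraries of a table) in both. FPKM is a level scaled by transcript length and by the mapped fragments of the library, so levels of different genes can be set side by side. RNA of IPEC-J2 cells, an epithelial line from the jejunum of a newborn pig, was sequenced in 15 libraries that form 5 groups of 3. In the overexpression table OV143 is the lentiviral vector that overexpresses miR-143 and Lv20NC its control vector. In the knockdown table Lv143KD and Lv133KD are the knockdown vectors and Lv3NC their control vector. Every group therefore carries a lentiviral vector, and untransduced cells are not among the groups. The sample labels call one knockdown Lv143KD, but the description of the design names miR-133 for it as well, so which miRNA is lowered in Lv143KD is not settled here. Whether the 3 libraries of a vector are separate cultures is not stated, and p-values measure only the spread between these libraries.

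MicroRNAs guide Argonaute proteins to partly complementary sites, mostly in the 3′ untranslated part of mRNAs, where pairing of the short seed at the 5′ end of the miRNA leads to mRNA decay and weaker translation. Raising a miRNA is therefore looked for as a lower mRNA level of its targets, and lowering it as a higher one, with effects on a single mRNA that are usually modest. miR-143 is processed from a transcript that also carries miR-145, and in the mouse intestine it is known to be most abundant in mesenchymal cells rather than in the epithelium. The pig annotation (RefSeq, Sscrofa11.1) places MIR143 on chromosome 2 from 150578738 to 150578817, with the start of MIR145 1.39 kb further on. Neither table has an entry for any miRNA gene, so the level of miR-143 in these libraries is not known here.

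Epithelial identity and libraries were checked first. All 7 epithelial markers reached 1 FPKM in both tables; EPCAM, an adhesion protein, lay at 267 to 359 FPKM in the knockdown table and 486 to 718 FPKM in the overexpression table. VIL1, a brush border protein of differentiated enterocytes, was low at 0.98 to 2.65 and 3.16 to 4.14 FPKM. Of the markers of other cell types, 2 of 5 for leukocytes, 1 of 5 for fibroblasts and 2 of 5 for smooth muscle reached 1 FPKM in the knockdown table. Of 4 endothelial markers 3 did so in the knockdown table and 2 in the overexpression table. CDH5, the endothelial cadherin, lay at 8.28 to 10.75 FPKM in the knockdown table and 3.82 to 4.85 FPKM in the overexpression table, and VWF stayed at or under 0.41 FPKM in both. PTPRC, the defining leukocyte gene, is listed at 0 in all 9 knockdown-table libraries and has no entry in the overexpression table. From the same list, CD68 lay at 1.33 to 2.61 FPKM in the knockdown table and 3.15 to 5.24 FPKM in the overexpression table. CD14 lay at 0.61 to 2.29 and 0.87 to 2.51 FPKM, and CD3E and LYZ stayed at or under 0.84 FPKM in both. The smooth muscle genes ACTA2, MYH11 and CNN1 stayed at or under 0.26 FPKM in both tables, although TAGLN, from the same list of 5 genes, reached 241 FPKM. Sums of deposited FPKM were 486086 to 558042, apart from 662022 in OV143 replicate 2, a library that stood apart for most of the 10 genes below. Read totals are not kept by FPKM, so the depth is unknown.

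The 10 genes covered a range of levels. In the overexpression table, over its 6 libraries, HK2 averaged 42.8 ± 8.88 FPKM (SD) and FSCN1 37.8 ± 5.44 FPKM. FNDC3B at 27.5 ± 6.06, MAPK7 at 19.7 ± 4.30, MAP3K7 at 15.1 ± 3.07 and ELK1 at 10.6 ± 1.75 FPKM followed. ABL2 at 4.68 ± 0.756, LIMK1 at 4.63 ± 0.544, DNMT3A at 3.02 ± 0.385 and BCL2 at 1.63 ± 0.255 FPKM were the lowest. Each of the first 6 genes overlapped in its library range with the gene above it, and so did LIMK1 with ABL2, whereas the steps from ELK1 to ABL2, from LIMK1 to DNMT3A and from DNMT3A to BCL2 were clear of overlap. In the knockdown table, over its 9 libraries, FSCN1 (34.9 ± 4.58 FPKM) and HK2 (33.4 ± 8.41 FPKM) again came first and BCL2 (1.49 ± 0.421 FPKM) last. There LIMK1 at 4.0 ± 0.590 and DNMT3A at 3.89 ± 0.903 FPKM overlapped, and the step from MAP3K7 (21.8 ± 0.792 FPKM) to ELK1 (13.8 ± 1.3 FPKM) was clear of overlap. The tables were normalised separately, so a level in one is not compared with a level in the other.

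**Figure D1:**
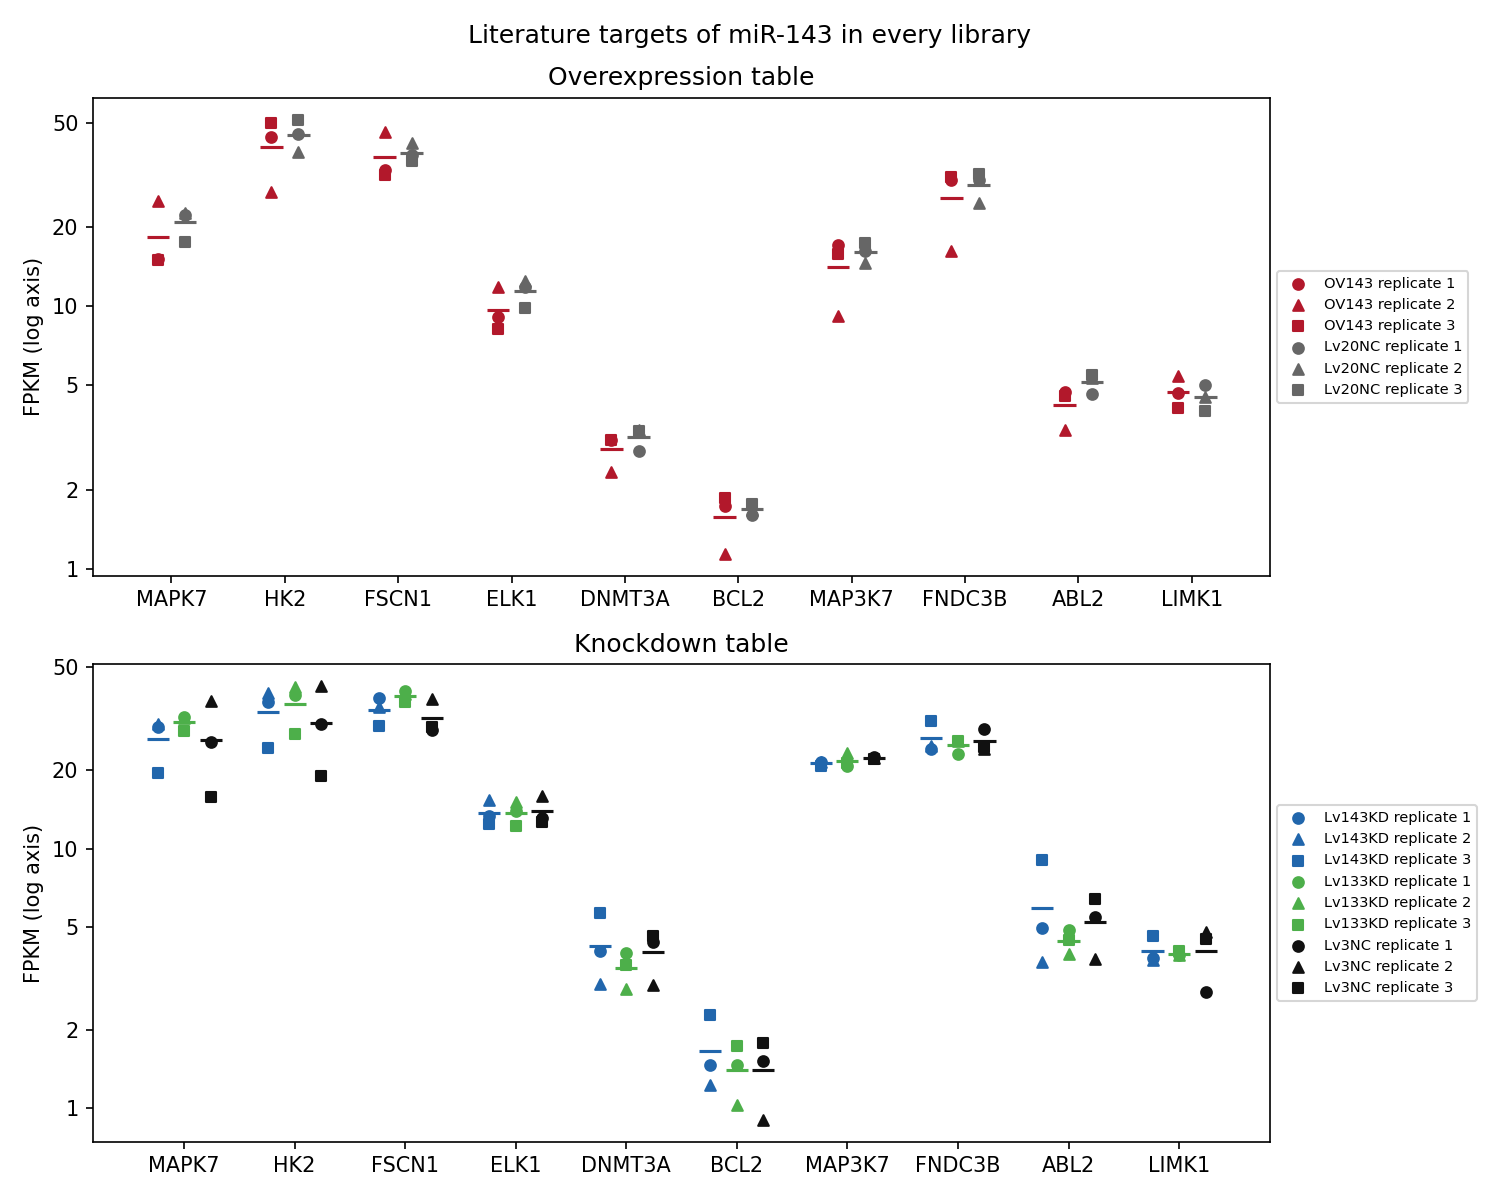
FPKM (log axis) of the 10 literature targets of miR-143 in each library, with OV143 and Lv20NC above and Lv143KD, Lv133KD and Lv3NC below; marker shapes give the replicate number and horizontal bars the group means of 3 libraries. OV143 replicate 2 (red triangles) lies at an end of the range for 9 of the genes shown, and its ELK1 value of 11.9 FPKM is the exception.

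The first question was whether the targets are lower when miR-143 is overexpressed. None of the 10 genes passed in OV143 against Lv20NC by limma with Benjamini-Hochberg adjustment over 11506 genes (adjusted p from 0.531 to 0.878), and none passed with the replicate number as a block (smallest adjusted p = 0.288). By their means 9 of the 10 were lower and 1 was higher, where 54.2% of all tested genes were lower. Their median log2 fold change on the log2(FPKM + 1) scale was -0.20, against -0.02 for all tested genes. Both values were smaller without OV143 replicate 2: 6 were then lower and 4 higher, with a median of -0.03. In the blocked fit without both libraries numbered 2, 8 were lower and 2 higher, again with a median of -0.03. In such bulk RNA, fewer cells expressing a gene and less RNA of it per cell cannot be told apart. None of the 10 had groups that did not overlap, a pattern seen in 12.9% of all tested genes in the lower direction and 8.96% in the higher. Over all tested genes 0 passed without the block (0%; 1304 at an unadjusted p under 0.05), and 223, or 1.94%, passed with it.

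MAPK7 (ERK5), a mitogen-activated kinase of the growth factor and stress response on chromosome 12 from 60144138 to 60148743, was at 15.1, 25.1 and 15.0 FPKM in OV143 and at 22.4, 22.6 and 17.7 FPKM in Lv20NC. Replicates 1 and 3 of OV143 were the lowest of the 6 libraries and replicate 2 the highest, so the groups overlapped. The log2 fold change was -0.20 (SE 0.21, 95% interval -0.69 to 0.28, limma adjusted p = 0.733). Without OV143 replicate 2 it was -0.44 and MAPK7 passed (limma adjusted p = 0.0441, with 513 genes passing in all). It also passed with the block once both libraries numbered 2 were left out (log2 fold change -0.38, adjusted p = 0.000699), where 1466 genes passed on 1 residual degree of freedom.

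ELK1, a transcription factor that ERK-type kinases phosphorylate and that acts with serum response factor (chromosome X, 42157980 to 42174964), was at 9.09, 11.9 and 8.22 FPKM in OV143 and at 11.8, 12.5 and 9.86 FPKM in Lv20NC. It was lower in OV143 in all 3 pairs of equal replicate number, as were HK2 and FNDC3B, where 26.3% of all tested genes were lower in all 3. The log2 fold change was -0.22 (SE 0.15, 95% interval -0.58 to 0.14, limma adjusted p = 0.615, and 0.288 with the block). Without OV143 replicate 2 it was -0.36 (adjusted p = 0.0856), and in the blocked fit without replicate number 2 it was -0.29 and passed (adjusted p = 0.0243).

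MAP3K7 (TAK1), the kinase that links cytokine and TGF-beta receptors to NF-kB and JNK signalling (chromosome 1, 58482046 to 58548087), was at 17.2, 9.18 and 15.9 FPKM in OV143 and at 16.3, 14.6 and 17.4 FPKM in Lv20NC. Only OV143 replicate 2 was below the controls. The log2 fold change of -0.22 (SE 0.22, limma adjusted p = 0.721) became 0.04 without that library.

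Among the genes of the cytoskeleton, FSCN1 (fascin), which bundles actin filaments in cell protrusions (chromosome 3, 4134173 to 4143275), was at 33.2, 46.0 and 31.7 FPKM in OV143 and at 37.6, 42.1 and 35.9 FPKM in Lv20NC. As with MAPK7, OV143 replicates 1 and 3 were the lowest libraries and replicate 2 the highest. The log2 fold change was -0.07 (SE 0.15, limma adjusted p = 0.867), and -0.24 without replicate 2 (adjusted p = 0.143). LIMK1, the kinase that inactivates the actin-severing protein cofilin (chromosome 3, 11252820 to 11279286), was at 4.68, 5.44 and 4.10 FPKM in OV143 and at 5.01, 4.52 and 4.01 FPKM in Lv20NC. It was the 1 gene of the 10 with a higher mean in OV143 (log2 fold change 0.06, SE 0.13, limma adjusted p = 0.878), and its sign turned to -0.03 without replicate 2. ABL2 (ARG), a tyrosine kinase that acts on actin (chromosome 9, 120888891 to 120984724), was at 4.71, 3.37 and 4.54 FPKM in OV143 and at 4.63, 5.36 and 5.49 FPKM in Lv20NC. Its log2 fold change was the most negative of the 10 at -0.25 (SE 0.13, 95% interval -0.56 to 0.06, limma adjusted p = 0.531), and -0.13 without replicate 2.

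HK2, the hexokinase that commits glucose to glycolysis and is induced in growing cells (chromosome 3, 68155656 to 68231187), was at 44.1, 27.2 and 49.9 FPKM in OV143 and at 45.3, 38.7 and 51.5 FPKM in Lv20NC. OV143 replicates 1 and 3 lay among the controls and replicate 2 below them. The log2 fold change was -0.19 (SE 0.22, 95% interval -0.72 to 0.33, limma adjusted p = 0.769), and 0.06 without replicate 2. DNMT3A, a DNA methyltransferase that sets new methylation (chromosome 3, 113501972 to 113609148), was at 3.10, 2.35 and 3.11 FPKM in OV143 and at 2.82, 3.38 and 3.35 FPKM in Lv20NC. Its log2 fold change was -0.12 (SE 0.12, limma adjusted p = 0.728), and -0.02 without replicate 2.

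BCL2, which protects mitochondria from apoptotic permeabilisation (chromosome 1, 158337403 to 158518214), was at 1.73, 1.14 and 1.86 FPKM in OV143 and at 1.61, 1.68 and 1.77 FPKM in Lv20NC. At this level the added 1 FPKM of the log scale understates any change; the log2 fold change was -0.07 (SE 0.13, limma adjusted p = 0.846), and 0.06 without replicate 2. FNDC3B, a fibronectin type III domain protein of the endoplasmic reticulum membrane (chromosome 13, 110587464 to 110931687), was at 30.4, 16.2 and 31.1 FPKM in OV143 and at 30.4, 24.8 and 31.9 FPKM in Lv20NC. Its log2 fold change was -0.20 (SE 0.24, 95% interval -0.78 to 0.37, limma adjusted p = 0.772), and 0.09 without replicate 2. Its lower bound, 0.583-fold on the FPKM + 1 scale, was the lowest of the 10 genes.

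**Figure D2:**
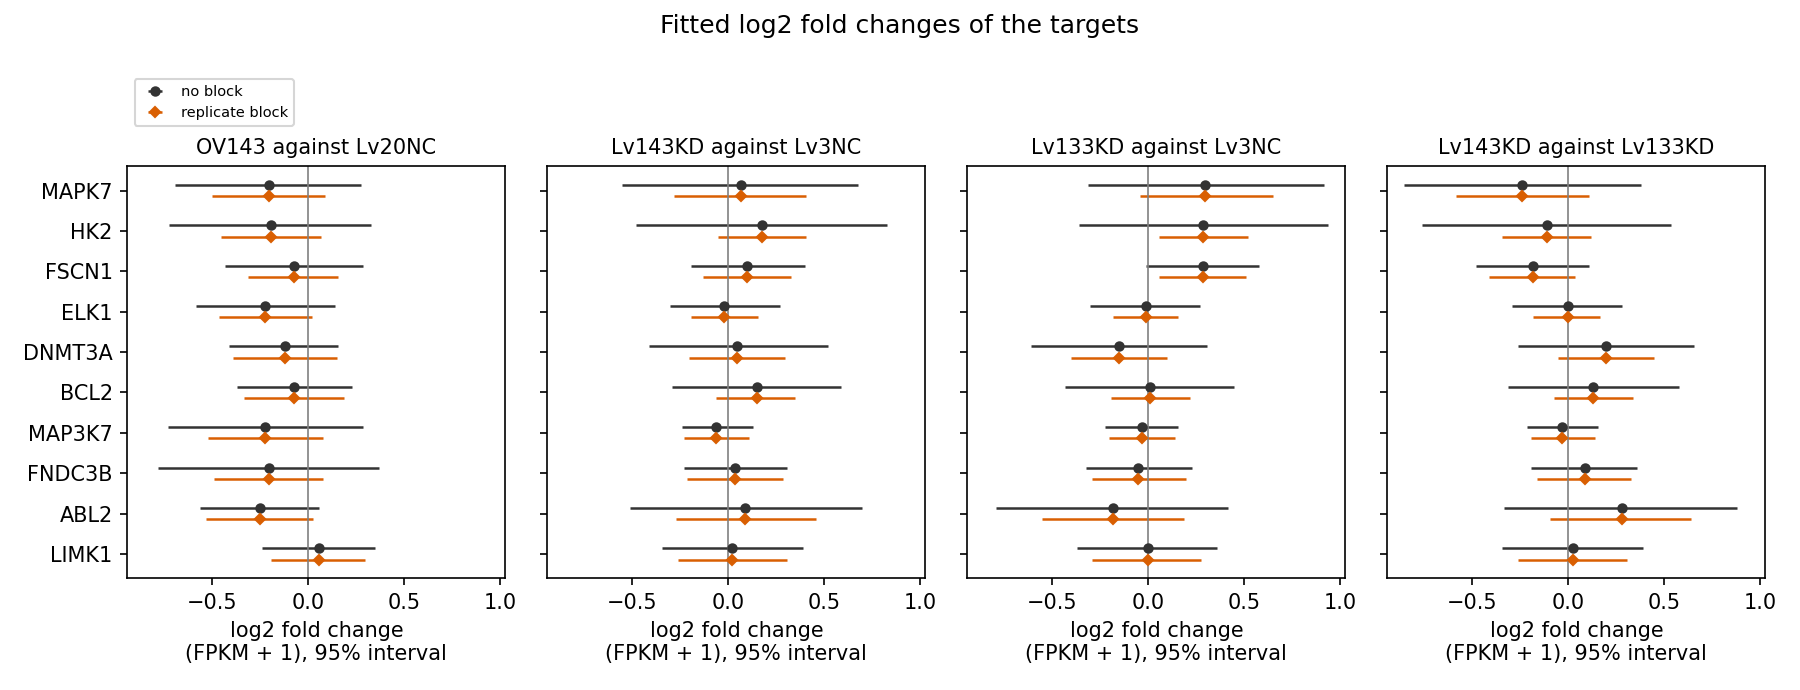
Fitted log2 fold changes on the log2(FPKM + 1) scale (horizontal axis) with 95% intervals for the 10 targets (vertical axis) in the 4 comparisons, without the replicate block (black circles) and with it (orange diamonds). In OV143 against Lv20NC 9 of the 10 estimates lie below 0 and all 10 intervals include 0; with the block the intervals of HK2 and FSCN1 in Lv133KD against Lv3NC lie above 0.

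The behaviour of OV143 replicate 2 divided the genes by their span in the genome, a pattern picked out after the values were seen. Set against the mean of OV143 replicates 1 and 3, this library was higher by 0.70 on the log2 scale for MAPK7, whose gene spans 4.61 kb with its introns, by 0.49 for FSCN1 (9.10 kb), by 0.41 for ELK1 (17.0 kb) and by 0.26 for LIMK1 (26.5 kb). It was lower for the 6 genes of longer span. The difference was -0.78 for MAP3K7 (66.0 kb), -0.76 for HK2 (75.5 kb), -0.36 for ABL2 (95.8 kb), -0.29 for DNMT3A (107 kb), -0.38 for BCL2 (181 kb) and -0.88 for FNDC3B (344 kb). All tested genes moved likewise. Their median difference was 0.33 for the 4688 genes under 20 kb, -0.04 for the 3629 genes from 20 to 60 kb and -0.31 for the 3165 genes of 60 kb and over. Between OV143 replicates 1 and 3 and Lv20NC replicates 1 and 3 the same medians were -0.01, -0.01 and -0.02. In that set of 4 libraries the difference was -0.38 for MAPK7, -0.29 for ELK1 and -0.17 for FSCN1, against -0.10 to 0.06 for the other 7 targets. The part of gene span in the comparison was not tested.

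**Figure D3:**
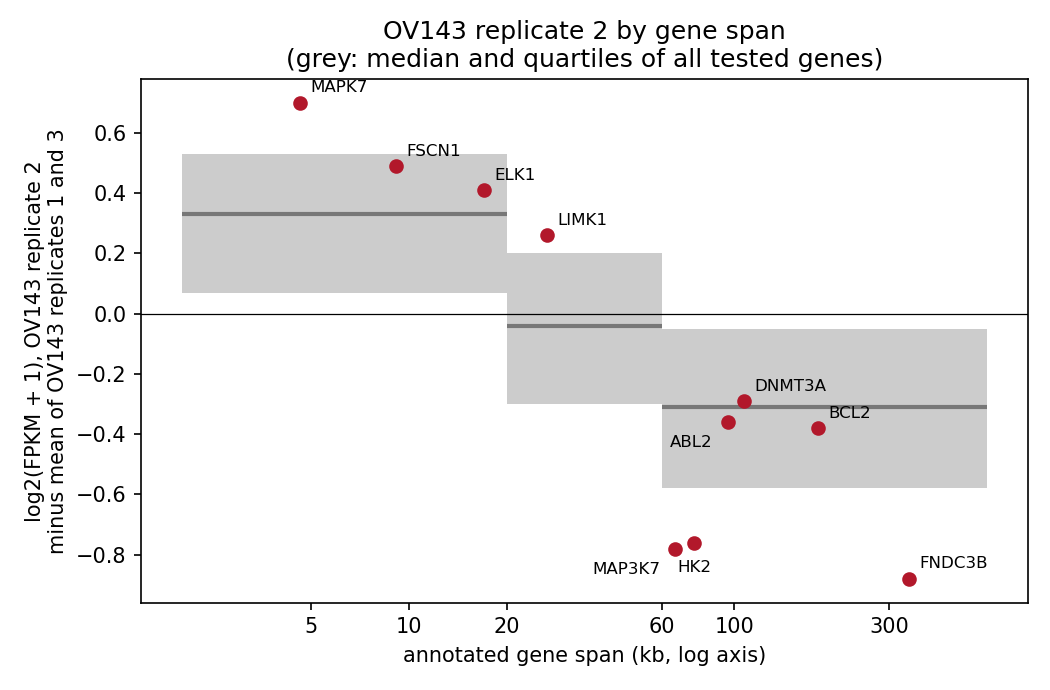
Difference in log2(FPKM + 1) between OV143 replicate 2 and the mean of OV143 replicates 1 and 3 (vertical axis) against the annotated gene span in kb (log axis) for the 10 targets (red points). Grey bands give the quartiles and grey lines the median of all tested genes in 3 span classes (under 20 kb, 20 to 60 kb, 60 kb and over); the medians are 0.33, -0.04 and -0.31, and the 4 targets of shortest span lie above 0 while the other 6 lie below.

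The second question was whether the targets are higher in the knockdown named for miR-143. None of the 10 genes passed in Lv143KD against Lv3NC by limma, without the block (adjusted p = 1 for each) or with it (smallest adjusted p = 0.964). Over all 11645 tested genes 2 passed without the block (0.0172%) and 20 with it (0.172%). By their means 8 of the 10 were higher in Lv143KD and 2 lower, where 44.2% of all tested genes were higher, and the medians were 0.06 for the 10 genes and -0.01 for all. Without Lv143KD replicate 3, 4 were higher and 6 lower with a median of -0.03. Without Lv3NC replicate 2 there were 5 of each with a median of 0.04. Leaving out any other single library of these vectors gave 6 or 7 higher. Blocked fits without replicate numbers 1, 2 and 3 gave 6, 9 and 4 higher. The largest difference was that of HK2, at 36.6, 39.8 and 24.4 FPKM in Lv143KD and at 30.1, 42.3 and 19.0 FPKM in Lv3NC. Its log2 fold change was 0.18 (SE 0.29, 95% interval -0.48 to 0.83), and the groups overlapped over most of their range. With the block its interval was -0.05 to 0.41 (unadjusted p = 0.116).

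BCL2 came next, at 1.47, 1.23 and 2.29 FPKM in Lv143KD and at 1.52, 0.90 and 1.79 FPKM in Lv3NC (log2 fold change 0.15, SE 0.20). MAPK7 was at 29.4, 30.3 and 19.6 FPKM in Lv143KD and at 25.7, 37.0 and 15.8 FPKM in Lv3NC (0.07, SE 0.27). In both genes the spread within each vector was larger than the difference between vectors, and libraries numbered 2 and 3 lay at opposite ends: low and high for BCL2, high and low for MAPK7. ABL2 was at 4.93, 3.65 and 9.07 FPKM in Lv143KD and at 5.47, 3.77 and 6.41 FPKM in Lv3NC. Its log2 fold change of 0.09 (SE 0.27) rested on Lv143KD replicate 3 and was -0.22 without it. FSCN1 (0.10, SE 0.13), DNMT3A (0.05, SE 0.21), FNDC3B (0.04, SE 0.12), LIMK1 (0.02, SE 0.16) and ELK1 (-0.02, SE 0.13) differed by less than their standard errors.

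MAP3K7 was the 1 target whose groups did not overlap in Lv143KD, and it was the lower one there. It was at 21.6, 21.6 and 20.9 FPKM in Lv143KD and at 22.4, 22.3 and 22.1 FPKM in Lv3NC. The difference was small (log2 fold change -0.06, SE 0.08, 95% interval -0.24 to 0.13, limma adjusted p = 1), and 2.03% of all tested genes had non-overlapping groups in that direction. MAP3K7 was also the steadiest of the 10 genes in the knockdown table, with its highest library 1.12 times its lowest, against 2.54 times for BCL2, 2.48 for ABL2, 2.34 for MAPK7 and 2.23 for HK2.

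The replicate number moved with the targets in the knockdown table. Between the libraries numbered 2 and those numbered 3 of all 3 vectors, the log2 difference was 0.79 for HK2 and 0.65 for MAPK7, and -0.63 for ABL2, -0.51 for BCL2 and -0.49 for DNMT3A. MAP3K7 (0.06), LIMK1 (-0.07) and FNDC3B (-0.11) hardly differed. HK2 exceeded 97.9% of all tested genes in this difference, and ABL2 exceeded 4.95%. For HK2, MAPK7, ABL2, BCL2 and DNMT3A these differences are larger than any vector difference of the same gene in this table. What a replicate number marks is not given in the labels, and its part in the vector comparisons was not tested beyond the block.

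The knockdown vector for miR-133 served as a second comparison with the same 3 controls. None of the 10 genes passed in Lv133KD against Lv3NC by limma (smallest adjusted p = 0.926, and 0.250 with the block), where 2 genes (0.0172%) passed in all without the block and 30 (0.258%) with it. FSCN1 was at 40.6, 39.3 and 36.6 FPKM in Lv133KD and at 28.7, 37.6 and 29.3 FPKM in Lv3NC, higher in each of the 3 pairs, where 16.2% of all tested genes were. Its log2 fold change was 0.29 (SE 0.13, limma unadjusted p = 0.0552, adjusted p = 0.926; with the block unadjusted p = 0.0186, adjusted p = 0.250). FSCN1 is also described as a target of miR-133, so it belongs to the published targets of both miRNAs. MAPK7 had a log2 fold change of 0.30 (SE 0.27) and HK2 of 0.29 (SE 0.29, with the block adjusted p = 0.251). The other 7 targets lay between -0.18 (ABL2) and 0.01 (BCL2). Since Lv143KD and Lv133KD share their controls, the values of both are given only side by side: 0.10 and 0.29 for FSCN1, 0.07 and 0.30 for MAPK7, 0.18 and 0.29 for HK2.

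Set directly against each other, the knockdown vectors did not differ in any of the 10 genes by limma (adjusted p = 1 for each, smallest with the block 0.910), and no gene of the 11645 passed (0%; unadjusted, 15 were under 0.05 with no block, and 209 with it). In Lv143KD against Lv133KD, 5 targets were higher and 5 lower, with a median log2 fold change of 0.01. ABL2 was highest at 0.28 (SE 0.27, 95% interval -0.33 to 0.88) and MAPK7 lowest at -0.24 (SE 0.27, 95% interval -0.85 to 0.38). DNMT3A was higher in all 3 pairs (4.04, 3.0 and 5.63 FPKM in Lv143KD, 3.97, 2.87 and 3.57 FPKM in Lv133KD), as were 10.4% of all tested genes. MAPK7, HK2 and FSCN1 were lower in all 3 pairs, as were 19.4% of all tested genes.

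Read together by mean alone, 7 of the 10 targets (MAPK7, HK2, FSCN1, DNMT3A, BCL2, FNDC3B and ABL2) were lower in OV143 and higher in Lv143KD, 3 had the same sign in both and 0 had the opposite pair of signs. This count is a description of signs and has no test, and the share of all tested genes with that pair of signs is not given here. Taken singly, 54.2% of all tested genes were lower in OV143 and 44.2% were higher in Lv143KD. The count of 7 fell to 5 without OV143 replicate 2, and to 4 without Lv143KD replicate 3 or without Lv3NC replicate 2. It fell to 3 (MAPK7, FSCN1 and ELK1) when OV143 replicate 2 and Lv143KD replicate 3 were both left out. The genes counted changed as well: LIMK1 entered without OV143 replicate 2, and ELK1 entered under each of the other alternatives. MAPK7 and FSCN1 were counted in all 5 settings.

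Of 25 further genes described as miR-143 targets, 21 were tested in the overexpression table. In OV143, 16 were lower and 5 higher by their means (median -0.17), where 54.2% of all tested genes were lower. With the block 5 of the 21 fell, where 1.29% of all tested genes did, and none fell without it. PTGS2, the inducible cyclooxygenase, was at 13.1, 6.78 and 15.9 FPKM in OV143 and at 28.9, 25.2 and 25.4 FPKM in Lv20NC (log2 fold change -1.16, limma adjusted p = 0.0130 with the block and 0.211 without). All 3 OV143 libraries were below all 3 controls. KLF4, a transcription factor of epithelial differentiation, was at 26.9, 14.7 and 26.9 FPKM in OV143 and at 52.9, 52.7 and 38.3 FPKM in Lv20NC (-1.07, adjusted p = 0.0240 with the block and 0.210 without).

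BBC3, a pro-apoptotic BH3-only protein, was at 5.35, 3.25 and 3.69 FPKM in OV143 and at 7.91, 8.72 and 5.89 FPKM in Lv20NC (-0.75, limma adjusted p = 0.0342 with the block and 0.234 without). KLF5, a transcription factor of proliferating crypt cells, was also called but was named outside the limit of 4 called genes per list, after its values were seen. It was at 62.1, 32.9 and 62.0 FPKM in OV143 and at 96.4, 69.6 and 77.3 FPKM in Lv20NC (-0.67, limma adjusted p = 0.0378 with the block and 0.389 without). These further genes were named because they were called in this comparison, so their separated groups go with that choice. Of the 21 tested genes of the list, 8 had separated groups in the lower direction and 1 in the higher. Over all tested genes the shares were 12.9% and 8.96%. PTGS2, KLF4 and BBC3 passed without the block once OV143 replicate 2 was left out (adjusted p from 0.00141 to 0.0488), and KLF5 did not (log2 fold change -0.37, adjusted p = 0.0994). Without OV143 replicate 2 the median of the 21 genes was -0.01, with 11 lower and 10 higher.

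In Lv143KD none of the 21 genes passed with or without the block. PTGS2 was at 33.4, 11.9 and 35.9 FPKM in Lv143KD and at 34.4, 13.5 and 24.5 FPKM in Lv3NC. KLF4 was at 79.0, 21.4 and 92.5 FPKM in Lv143KD and at 114, 36.3 and 77.9 FPKM in Lv3NC. Both were lowest in the library numbered 2 of each vector. The log2 fold changes were 0.11 for PTGS2, 0.11 for KLF5, -0.34 for KLF4 and -0.42 for BBC3. The median of the 21 was -0.02, with 7 higher and 14 lower, where 44.2% of all tested genes were higher.

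The genes around MAPK7 and ELK1 held the other calls in OV143. Of 7 tested genes of the ERK5 cascade all 7 were lower by their means (median -0.12), where 54.2% of all tested genes were. After quantile normalization 6 of 7 were lower (median -0.06), and without OV143 replicate 2, 5 were (median -0.06). With the block 2 fell, where 1.29% of all tested genes did. KLF2, a transcription factor whose gene is induced through ERK5 and MEF2 factors, was at 4.28, 5.87 and 3.72 FPKM in OV143 and at 8.37, 9.15 and 6.72 FPKM in Lv20NC (log2 fold change -0.70, limma adjusted p = 0.0152 with the block and 0.228 without). MEF2D, a transcription factor that ERK5 phosphorylates, was at 16.3, 12.9 and 15.6 FPKM in OV143 and at 23.3, 22.2 and 20.5 FPKM in Lv20NC (-0.53, 0.0415 with the block and 0.200 without).

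Of 5 tested partners of ELK1 at serum response elements, 2 fell with the block, where 1.29% of all tested genes did. By mean 4 of the 5 were lower (median -0.21, and also -0.21 without OV143 replicate 2), where 54.2% of all tested genes were. EGR1, an immediate early transcription factor, was at 134, 86.8 and 127 FPKM in OV143 and at 236, 191 and 212 FPKM in Lv20NC (-0.89, limma adjusted p = 0.00802 with the block and 0.163 without). FOS, a subunit of AP-1, was at 251, 201 and 254 FPKM in OV143 and at 372, 320 and 331 FPKM in Lv20NC (-0.54, 0.0342 with the block and 0.218 without). KLF2, MEF2D, EGR1 and FOS also passed without the block when OV143 replicate 2 was left out (adjusted p from 0.00302 to 0.0198). MEF2D (0.0926) and FOS (0.123) did not pass when replicate number 3 was left out of the blocked fit. In Lv143KD against Lv3NC neither list held a call. By mean 6 of the 7 ERK5 cascade genes and 4 of the 5 ELK1 partners were lower (median -0.11 in each). Over all tested genes 55.8% were lower there. KLF2 (-0.25), MEF2D (-0.11), EGR1 (-0.11) and FOS (-0.29) were lower there as in OV143. Without Lv143KD replicate 2 the list medians were 0.09 and 0.04.

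**Figure D4:**
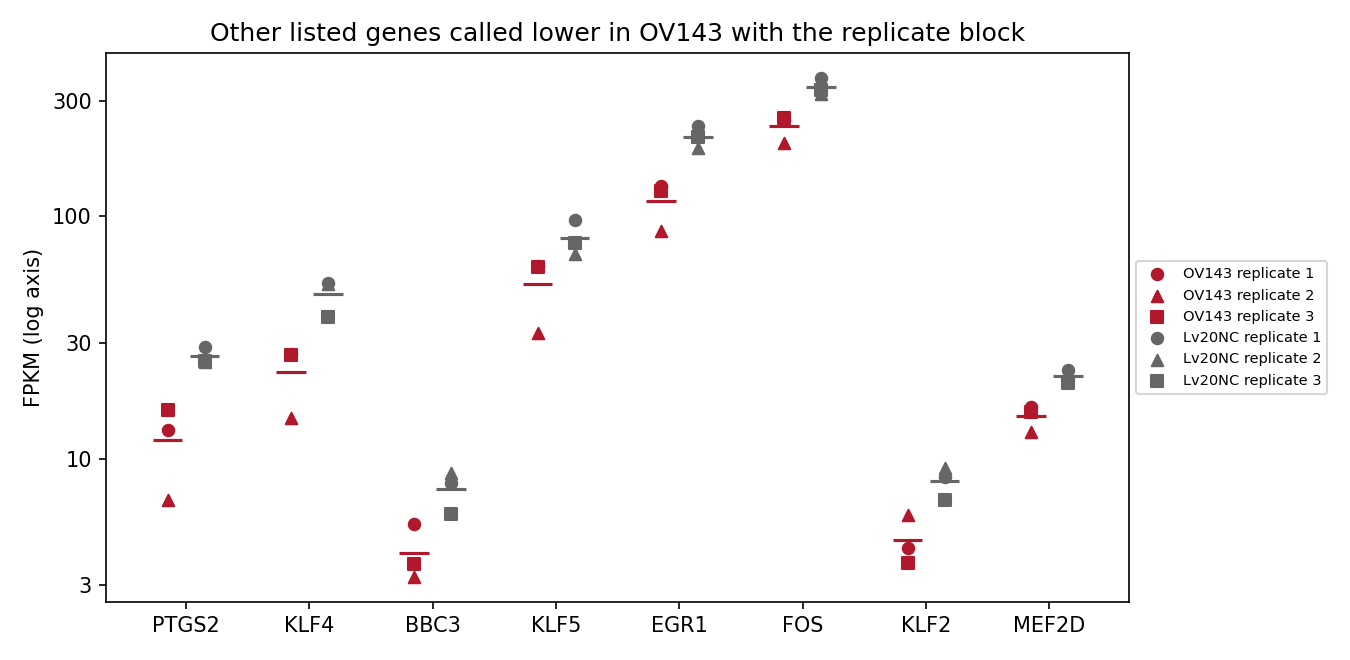
FPKM (log axis) in the 3 OV143 and 3 Lv20NC libraries of 8 genes from the further lists that were called lower in OV143 with the replicate block; marker shapes give the replicate number and horizontal bars the group means. In each gene the 3 OV143 libraries lie below the 3 Lv20NC libraries. All 8 genes are shown because they were called in this same comparison, so their separated groups go with that choice. KLF5 was in addition named outside the limit of called genes per list, after its values were seen.

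The remaining lists held no call in any of the 4 comparisons, with or without the block. Of 13 glycolysis genes around HK2, 12 were higher in OV143 by their means (median 0.32) and 1 was lower, where 45.8% of all tested genes were higher. Among the 12 is the glucose transporter SLC2A1 (0.28), which is not downstream of HK2. HK2 itself was at -0.19 (0.06 without OV143 replicate 2). Of the 13, 9 had separated groups in the higher direction, where 8.96% of all tested genes had. PGK1, phosphoglycerate kinase, was at 908, 1084 and 957 FPKM in OV143 and at 661, 719 and 753 FPKM in Lv20NC (log2 fold change 0.46, limma adjusted p = 0.247, with the block 0.0638, and 0.0383 without OV143 replicate 2). The median of the 13 was 0.16 without OV143 replicate 2 and 0.19 after quantile normalization. The hexokinase paralog HK1 was at 142 ± 1.37 FPKM in OV143 and 122 ± 2.92 FPKM in Lv20NC (SD, n = 3 each; 0.22, adjusted p = 0.407 by limma).

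Of 13 tested paralogs of the targets, 12 were lower in OV143 and 1 higher (median -0.19), where 54.2% of all tested genes were lower. After quantile normalization or without OV143 replicate 2, 11 of the paralogs were lower. ELK3, a relative of ELK1, had the smallest p, at 7.90, 6.33 and 7.11 FPKM in OV143 and at 10.8, 12.1 and 9.75 FPKM in Lv20NC (-0.55, limma adjusted p = 0.202, and 0.0521 with the block). It passed without OV143 replicate 2 (0.0255). Of 10 genes of the TAK1 complex and its IKK and JNK arms, 8 were lower (median -0.23, and -0.10 without OV143 replicate 2; 7 were lower after quantile normalization). IKBKB, the kinase that releases NF-kB, came first by p (31.2 ± 1.46 FPKM in OV143 and 38.2 ± 2.01 FPKM in Lv20NC, SD, n = 3 each; -0.29, limma adjusted p = 0.302). Of 10 apoptosis genes 6 were lower (median -0.05, and -0.12 without OV143 replicate 2). This list holds BCL2-family genes and also CYCS (-0.02), APAF1 (-0.12) and CASP9 (-0.11), which are among the 6. From the same list PMAIP1 (NOXA) was at 86.6, 31.3 and 85.9 FPKM in OV143 and at 126, 130 and 118 FPKM in Lv20NC (-1.0, limma adjusted p = 0.357, and without OV143 replicate 2 -0.53 with 0.00483). Of 13 genes of actin and cofilin control 8 were lower (median -0.04, and 0.00 without OV143 replicate 2), and RHOA had the smallest p (0.17, limma adjusted p = 0.565). In Lv143KD the medians of these 5 lists lay between -0.09 and 0.01.

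Across libraries the targets did not move as one group. The genes most like each target were ranked by the lower of 2 Pearson correlations of log2(FPKM + 1), one over the 9 knockdown-table libraries and one over the 6 overexpression-table libraries, among 11142 genes tested in both tables. These are descriptions without a test, and the libraries share replicate numbers and, in the overexpression table, the distance of OV143 replicate 2. ABL2 and DNMT3A were each other's closest gene, at 0.97 and 0.96. MAPK7 was closest to TCOF1 (0.99 and 1.00) and MYBBP1A (0.98 and 0.99), which act in ribosomal RNA synthesis. HK2 was closest to RAD54L2 (0.97 and 0.97), BCL2 to RABEP1 (0.99 and 0.97) and FNDC3B to the tight junction scaffold TJP1 (0.98 and 0.99). FSCN1 was closest to ANKRD9 (0.93 and 0.92), ELK1 to the Wnt effector TCF7L2 (0.94 and 0.94), MAP3K7 to FAM114A2 (0.88 and 0.92) and LIMK1 to TMEM151A (0.89 and 0.88). Between HK2 and MAPK7 the correlation was 0.94 in the knockdown table and -0.73 in the overexpression table, so this pair moved together in one and apart in the other.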

How the data were processed

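Gene-level FPKM, the unit given by the deposited file headers, came as a knockdown table of 9 libraries and an overexpression table of 6. The build is Sscrofa11.1, per the submitters' processing notes. The sources used here do not give the aligner, counter, annotation or strand setting. Symbols and 1-based coordinates come from a RefSeq gene table of that build, which named 18618 of 19000 and 16949 of 17001 genes. Sequences were not used here. The steps between low FPKM values were too few (3 to 23 genes per library) to recover read counts, so precision is given by the SD over 3 libraries, the standard error and the 95% interval.

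Values were taken as log2(FPKM + 1), and genes reaching 1 FPKM in 3 or more of a table's libraries were fitted with limma 3.58.1 in R 4.3.3 (trended empirical Bayes variance, two-sided, Benjamini-Hochberg adjustment over all tested genes, called under 0.05). The knockdown table was fitted as a whole, and no test crosses the tables. The fit was tested on simulated data. Same-numbered libraries deviated together from their group means, with correlations of 0.27 to 0.85 over the 9 knockdown pairs and of 0.23 to 0.72 over the 3 overexpression pairs. All exceed the limit of 0.1 set for pairing, so the fit with the number as a block is given where it changes a call. Pairs of unequal number ran from -0.87 to 0.38 in the knockdown table and from -0.68 to 0.54 in the overexpression table. Some of them therefore exceed that limit as well. The labels do not say what the number marks.

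The 10 genes, 8 further lists (107 symbols, of which 103 and 101 were found) and the comparisons were chosen with earlier results of these data known. Named from the further lists were up to 4 called genes per list and comparison by smallest p, or the gene with the smallest p in OV143; 1 gene called in OV143 is counted but not reported here. Alternatives tried were a pseudocount of 0.1, no filter, quantile normalization, the block, and leaving out each library or each replicate number.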

Additional observations from a re-analysis of the deposited data

How the results depend on the processing

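In OV143 against Lv20NC 0 genes passed in all, with 6 after quantile normalization, 223 with the replicate block, 0 to 513 on leaving out single libraries (513 without OV143 replicate 2), and 705, 1466 and 297 in blocked fits without replicate numbers 1, 2 and 3 (1 residual degree of freedom). In Lv143KD against Lv3NC 2 passed, with 1 when no filter was used, 20 with the block, 0 without any 1 of the libraries and 60 with the block and without those numbered 3. In Lv133KD against Lv3NC 2 passed, with 1 when no filter was used, 30 with the block, 0 without any 1 of the libraries, and 1, 12 and 72 with the block and without those numbered 1, 2 and 3. Lv143KD against Lv133KD gave 0 under every alternative tried. The causes were not tested. Of 40 results for the 10 targets, 30 changed sign in a fit that left out a library or a replicate number, and 2 passed in such a fit (MAPK7 and ELK1 in OV143). In OV143 against Lv20NC, the log2 fold changes whose sign turned on leaving out single libraries ran from -0.36 to 0.06 for HK2, -0.24 to 0.02 for FSCN1, -0.15 to 0.06 for BCL2, -0.38 to 0.04 for MAP3K7, -0.36 to 0.09 for FNDC3B and -0.03 to 0.14 for LIMK1. With the block and without a replicate number, the sign there turned for DNMT3A (0.01, without number 2), BCL2 (0.06, without number 2) and LIMK1 (-0.03, without number 2). In Lv143KD against Lv3NC, the log2 fold changes whose sign turned on leaving out single libraries ran from -0.24 to 0.35 for MAPK7, -0.11 to 0.44 for HK2, -0.09 to 0.08 for ELK1, -0.13 to 0.23 for DNMT3A, -0.02 to 0.26 for BCL2, -0.07 to 0.12 for FNDC3B, -0.22 to 0.34 for ABL2 and -0.16 to 0.14 for LIMK1. With the block and without a replicate number, the sign there turned for FSCN1 (-0.04, without number 1), LIMK1 (-0.13, without number 1), ELK1 (0.00, without number 2), MAPK7 (-0.04, without number 3), DNMT3A (-0.04, without number 3), FNDC3B (-0.10, without number 3) and ABL2 (-0.08, without number 3). In Lv133KD against Lv3NC, the log2 fold changes whose sign turned on leaving out single libraries ran from -0.00 to 0.58 for MAPK7, -0.00 to 0.55 for HK2, -0.08 to 0.08 for ELK1, -0.15 to 0.13 for BCL2, -0.08 to 0.00 for MAP3K7, -0.09 to 0.03 for FNDC3B and -0.19 to 0.11 for LIMK1. With the block and without a replicate number, the sign there turned for MAP3K7 (0.01, without number 1), FNDC3B (0.08, without number 1), ELK1 (0.02, without number 2), BCL2 (-0.03, without number 2), LIMK1 (0.12, without number 2), ELK1 (0.00, without number 3) and LIMK1 (0.06, without number 3). In Lv143KD against Lv133KD, the log2 fold changes whose sign turned on leaving out single libraries ran from -0.29 to 0.10 for HK2, -0.08 to 0.06 for ELK1, -0.03 to 0.25 for BCL2, -0.06 to 0.02 for MAP3K7, -0.02 to 0.15 for FNDC3B, -0.04 to 0.52 for ABL2 and -0.05 to 0.07 for LIMK1. With the block and without a replicate number, the sign there turned for ELK1 (0.02, without number 1), MAP3K7 (0.01, without number 2), ABL2 (-0.03, without number 3) and LIMK1 (-0.04, without number 3). With a pseudocount of 0.1, LIMK1 in Lv133KD against Lv3NC came to 0.00, and after quantile normalization ELK1 (0.03) and MAP3K7 (0.00) in Lv143KD against Lv133KD turned positive. The block changed no call of the 10 targets and made 9 calls among the genes of the further lists, none of whose 14 tested values changed sign. Depth is unknown. With 3 libraries a group, 95% intervals of the 10 targets were as wide as -0.48 to 0.83 (HK2 in Lv143KD against Lv3NC), against -0.24 to 0.13 for MAP3K7 in the same comparison. Each interval holds the differences that these libraries leave possible for that gene, without adjustment for the number of genes tested. A target that was not called is therefore not shown to be unchanged.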
